A study of Homo sapiens with 4 samples.

Results

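The trametinib c-MYC list held 2939 peaks that lay away from promoters and had no counterpart in the DMSO list, and these 2939 regions are described here. They were found among 5431 trametinib peaks, of which 3303 had their summit more than 1 kb from every protein-coding transcription start site (TSS) of GENCODE. The members were chosen by 2 measured properties, the position of the summit in the trametinib list and the absence of an overlapping DMSO peak, so neither is a finding. Of all trametinib peaks, 69.4% overlapped no DMSO peak, against the 89.0% of non-promoter peaks that became members. The question put to the members was whether their genomic placement and sequence differ from those of peaks in the IgG control.

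The libraries came from MIA PaCa-2, an established human pancreatic ductal adenocarcinoma (PDAC) cell line, profiled with ChIP-seq, which sequences the DNA fragments that an antibody pulls down from chromatin. Cells received DMSO, the inhibitor AMG510 at 100 nM or the MEK inhibitor trametinib at 10 nM for 8 h. There was 1 c-MYC library for each treatment and 1 library with non-specific immunoglobulin (IgG) from DMSO-treated cells. No group had a replicate, so each difference is between single libraries, carries no p-value, and drug and library cannot be told apart. Members and IgG peaks differ in antibody, drug and library at once, and these cannot be told apart either. Between 22700000 and 24800000 tags had entered peak calling, as recovered from the lists. The intervals given are 95% intervals, Wilson for a share and Newcombe for a difference of shares. With 1 library per group they cover counting error only. The authors had removed duplicate reads, but both mates of a pair are not independent molecules.

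MYC binds DNA as a dimer with MAX, most tightly at the palindrome CACGTG, the canonical E-box. It is found mainly at CpG-rich promoters, and at high levels also at distal regulatory regions. MEK activates ERK, which stabilizes MYC protein and induces genes of the AP-1 family, and AP-1 sites (TGANTCA) mark many distal regulatory regions. An antibody without a specific target also gives peaks, at repeats and wherever reads pile up by counting noise, and for this reason IgG peaks were put through the same distance and DMSO rules, which kept 2669 of 2966.

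The reference sequence (GRCh38, plus strand) at the members of largest fold enrichment on chromosomes 1 to 22 and X is shown first, because it holds no canonical E-box. Each window covers 50 bp on either side of the summit. Capitals mark the E-box CACGTG, the AP-1 motif TGANTCA and the GC box GGGCGG on either strand.
ROCK1P1 member, chr18:109917-110017: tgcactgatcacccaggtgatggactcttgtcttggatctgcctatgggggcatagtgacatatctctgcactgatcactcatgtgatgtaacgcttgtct
TUBA3C-side member, chr13:16022356-16022456: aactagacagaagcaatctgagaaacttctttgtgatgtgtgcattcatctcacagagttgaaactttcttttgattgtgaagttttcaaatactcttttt
RNVU1-4 member, chr1:120942540-120942640: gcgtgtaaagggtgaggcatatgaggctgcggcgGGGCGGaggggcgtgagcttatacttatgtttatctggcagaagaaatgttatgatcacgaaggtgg
PTGER4-side member, chr5:40218458-40218558: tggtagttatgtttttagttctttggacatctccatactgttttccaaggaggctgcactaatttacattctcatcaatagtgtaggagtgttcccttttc
PTBP2-side member, chr1:96440233-96440333: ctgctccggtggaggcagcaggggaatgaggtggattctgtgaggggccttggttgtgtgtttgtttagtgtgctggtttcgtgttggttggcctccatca

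The next windows are those of the 3 members of largest fold enrichment with CACGTG within 100 bp of the summit.
JUN-side member, chr1:58755617-58755717: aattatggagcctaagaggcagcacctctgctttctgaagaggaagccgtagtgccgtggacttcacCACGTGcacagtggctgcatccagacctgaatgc
ID2-AS1 member, chr2:8676628-8676728: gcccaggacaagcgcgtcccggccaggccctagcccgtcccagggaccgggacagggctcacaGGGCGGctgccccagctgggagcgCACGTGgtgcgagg
DDI2-side member, chr1:15603608-15603708: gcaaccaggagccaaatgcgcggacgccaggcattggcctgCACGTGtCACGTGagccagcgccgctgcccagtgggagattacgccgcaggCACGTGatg

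The last windows belong to members that overlapped an AMG510 peak and no IgG peak, in order of fold enrichment after the RNVU1-4 member already shown. The RNU4ATAC and TEX14 members have their summits in genes for small RNAs.
MSL1-side member, chr17:40113501-40113601: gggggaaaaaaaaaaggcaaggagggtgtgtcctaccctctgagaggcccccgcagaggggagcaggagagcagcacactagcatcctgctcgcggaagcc
PLEKHG6-side member, chr12:6278573-6278673: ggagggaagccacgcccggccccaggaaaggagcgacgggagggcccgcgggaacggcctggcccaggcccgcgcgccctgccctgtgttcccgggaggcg
RNU4ATAC member, chr2:121530916-121531016: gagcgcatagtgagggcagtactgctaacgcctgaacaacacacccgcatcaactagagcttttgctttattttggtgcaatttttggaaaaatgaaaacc
TEX14 member, chr17:58631702-58631802: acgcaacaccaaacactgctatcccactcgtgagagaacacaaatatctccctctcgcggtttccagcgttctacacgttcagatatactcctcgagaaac

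Members were low peaks. The median member had 11 tags stacked at its summit, with quartiles of 10 and 13, and a fold enrichment over the local background of 4.40. A count of 11 has an exact Poisson interval of 5.49 to 19.7. From 8 to 14 tags were present at 90.8% of members, and 8 tags were the smallest number called at the genome-wide background in the DMSO and the trametinib libraries. The lower counting bound of 270 members (9.19%) lay above that number, so for most members the absence of a DMSO peak cannot be read as absence of tags. Only 16.2% of members lay at the genome-wide background of the trametinib library, and a higher local background raises the number needed for a call. The bound also treats tags as independent, so the 270 are not members shown to lack tags in DMSO. IgG peaks under the same rule had a median of 10 tags and a fold enrichment of 4.54. In the IgG library 7 tags were the smallest number called at the genome-wide background. Tags were taken to be extended to the shortest peak length, 143 bp in IgG, 163 bp in trametinib and 177 bp in DMSO. Heights from different libraries are therefore not on the same scale. The 4577 non-promoter DMSO peaks without a trametinib peak had a median of 12 tags, with quartiles of 10 and 13. The 364 non-promoter trametinib peaks that did overlap a DMSO peak stood higher, with a median of 18 tags and quartiles of 14 and 28.2. Of these 364 peaks, 40.1% overlapped an IgG peak and 27.7% lay on unplaced or unlocalized contigs, against 1.02% and 2.11% of members. The annotation used holds no TSS on these contigs, so peaks there passed the distance rule without a measured distance.

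**Figure D1:**
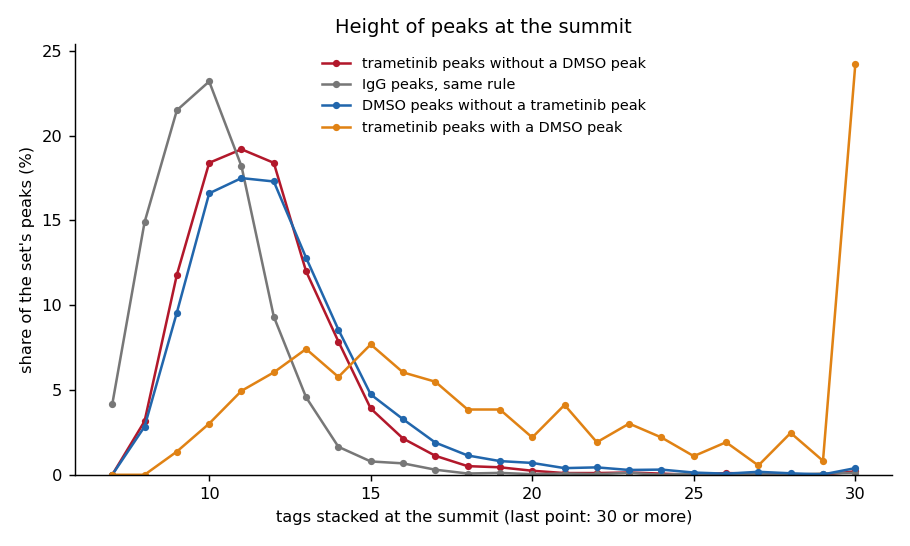
Share of peaks (%, vertical axis) by the number of tags stacked at the summit (horizontal axis; the last point pools 30 or more) for members (red), IgG peaks under the same rule (grey), non-promoter DMSO peaks without a trametinib peak (blue) and non-promoter trametinib peaks with a DMSO peak (orange). The red and blue lines nearly coincide around their medians of 11 and 12 tags, the grey line peaks slightly lower and the orange line extends far to the right.

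Many of the highest members also had a peak in another library. Of the 31 members with 20 or more tags, 14 overlapped an AMG510 or an IgG peak and 11 had a summit sequence of 31 bases with another copy in the genome. Among the 102 members with a score above 60, 17 overlapped an AMG510 peak, 15 an IgG peak and 19 lay on unplaced or unlocalized contigs. Across the members, 62 (2.11%) lay on such contigs and 17.1% had a repeated summit sequence (15.8 to 18.6), against 16.7% of IgG peaks. The contribution of repeats to the high members was not tested.

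Placement against genes was close to that of the control. Summits lay between genes at 1122 members, a share of 38.2% (36.4 to 39.9), and at 37.3% of IgG peaks (35.5 to 39.2). The difference was 0.859 percentage points, with an interval of −1.68 to 3.39 that holds 0. Introns of protein-coding genes held 41.6% of members and 41.0% of IgG peaks, a difference of 0.624 points (−1.96 to 3.20). Noncoding genes and pseudogenes held 15.2% and 17.1%, a difference of −1.88 points (−3.82 to 0.0488) whose interval only just holds 0. Coding exons held 1.60% and 1.27%, and untranslated regions (UTRs) 1.26% and 1.09%, with intervals that hold 0 for both differences. Over the 14126112 windows of 100 bp on either side of a centre that tile the genome more than 1 kb from a protein-coding TSS, 39.9% were intergenic and 41.6% intronic, so both sets lay close to the genome at large in these classes.

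**Figure D2:**
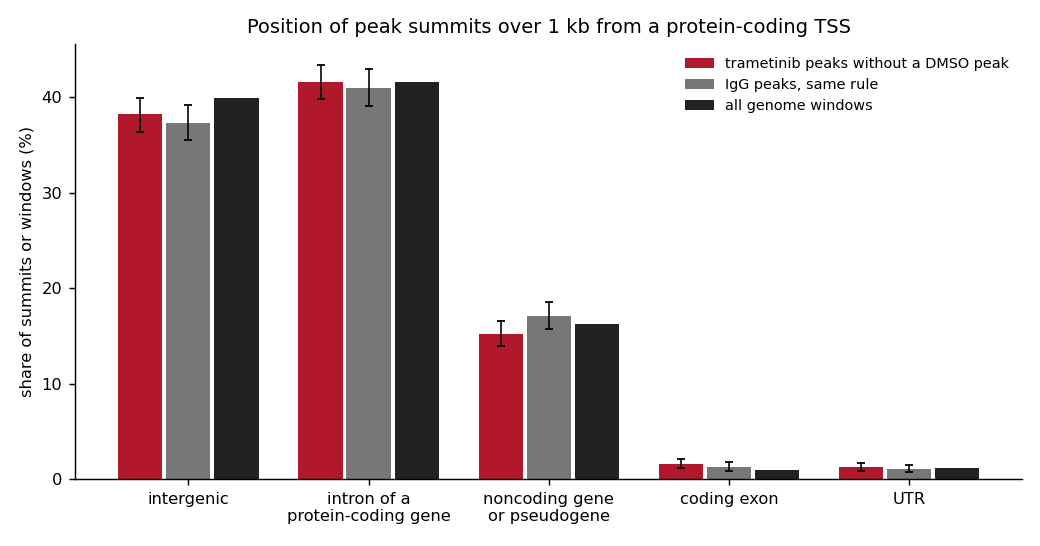
Share (%, vertical axis) of member summits (red), IgG summits under the same rule (grey) and all genome windows over 1 kb from a protein-coding TSS (black) in each class of position. Bars on the peak sets are 95% Wilson intervals, and members and IgG peaks overlap in every class, with 38.2 and 37.3% intergenic.

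Distance to genes did separate members from the control. A protein-coding TSS lay 5 to 50 kb away at 43.5% of members (41.7 to 45.2) and at 39.5% of IgG peaks (37.6 to 41.3), a difference of 4.00 points (1.42 to 6.57). Beyond 50 kb lay 46.3% of members and 50.5% of IgG peaks, a difference of −4.16 points (−6.77 to −1.54). Between 1 and 5 kb the shares were 8.10% and 7.83%, which differed by less than the counting error. AMG510 peaks under the same rule had 40.8% at 5 to 50 kb, and DMSO peaks without a trametinib peak 43.3%. The difference between members and these DMSO peaks was 0.103 points (−2.19 to 2.4).

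Members also lay near start sites that the rule did not use. A TSS of some other annotated transcript was within 1 kb of 220 members (7.49%, 6.59 to 8.49), against 4.57% of IgG peaks, a difference of 2.91 points (1.67 to 4.16). Among the DMSO peaks without a trametinib peak the share was 10.2%. The nearest such TSS belonged to a long noncoding RNA at 86 members, to a transcript of a protein-coding gene that is not itself protein-coding at 75, and to a pseudogene or other gene at 59. The IgG peaks had 49, 49 and 24 in these classes. In a count made after values were seen, the TSS of a gene for a small nuclear, nucleolar or related RNA lay within 1 kb of 22 members (0.749%, 0.495 to 1.13) and 5 IgG peaks (0.187%, 0.0800 to 0.438). The share was 0.448% for AMG510 peaks under the same rule (0.318 to 0.632) and 0.546% for DMSO peaks without a trametinib peak (0.370 to 0.805), both with intervals that overlap that of the members, and 5.77% for trametinib peaks with a DMSO peak. Of those 22 members, 8 overlapped an AMG510 peak, and 8 had the TSS within 200 bp.

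Base composition differed from the control as well. The median GC content within 100 bp of the summit was 43.8% for members (quartiles 36.8 and 51.2) and 42.3% for IgG peaks, a difference of 1.49 points (0.789 to 2.2, from order statistics of both medians). The interval held 0 among peaks with a fold enrichment above 5, at 0.498 points (−0.615 to 2.99), and with a score above 60, at 1.24 points (−4.21 to 6.99). All genome windows had a median of 39.8%. AMG510 peaks under the same rule had 45.8%, DMSO peaks without a trametinib peak 47.3% and trametinib peaks with a DMSO peak 56.0%. A CpG-rich window, with GC above 50% and observed over expected CpG above 0.6, was present at 146 members (4.97%, 4.24 to 5.81) and at 2.10% of IgG peaks, a difference of 2.87 points (1.92 to 3.84). Of the DMSO peaks without a trametinib peak 11.3% were CpG-rich, a difference for members of −6.33 points (−7.52 to −5.10). Of AMG510 peaks under the same rule 4.23% were, a difference for members of 0.736 points (−0.144 to 1.69).

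The canonical E-box was as frequent at members as at IgG peaks. CACGTG lay within 100 bp of the summit at 78 members, or 2.65% (2.13 to 3.30), and at 68 IgG peaks, or 2.55% (2.01 to 3.22). The difference was 0.106 points (−0.743 to 0.944). Of all trametinib peaks 9.15% held the motif, as did 14% of the non-promoter trametinib peaks that overlapped a DMSO peak. DMSO peaks without a trametinib peak held it at 5.33%, a difference for members of −2.68 points (−3.54 to −1.79). In windows 1 kb away from the summits the share was 1.76% for members and 1.73% for IgG peaks, and over the genome 1.82%. In both sets the share at the summit was thus above that beside it.

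E-boxes of members gathered little at the summit. In the 5 central bins of 50 bp around the summit, E-boxes of members were 1.30 times as frequent as in the 22 bins centred at least 500 bp away. The ratio was 1.48 for IgG peaks, 1.33 for AMG510 peaks under the same rule, 2.21 for DMSO peaks without a trametinib peak and 3.89 for trametinib peaks with a DMSO peak. A rise of the E-box share with the strength of members was not detectable. From the lowest to the highest quartile of fold enrichment the share was 2.31, 2.86, 2.59 and 2.86%, with overlapping intervals. In the DMSO peaks without a trametinib peak it was 4.45, 3.23, 4.81 and 8.83% (7.32 to 10.6 in the highest quartile). In the trametinib peaks with a DMSO peak it was 7.69, 18.7, 20.9 and 8.79%, so a flat or uneven course was not limited to members. Many peaks of this last set (40.1%) overlapped an IgG peak, and the part of these in its course was not tested.

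**Figure D3:**
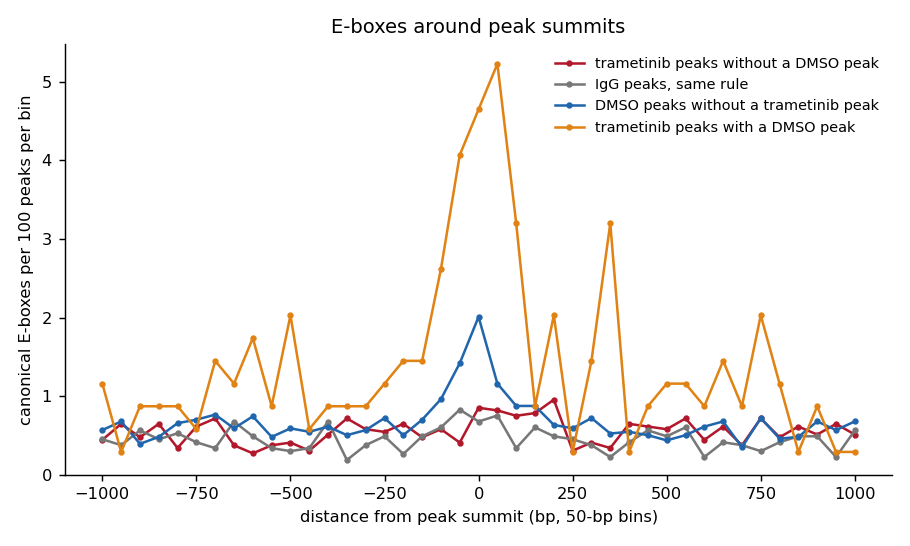
Canonical E-boxes per 100 peaks in each 50-bp bin (vertical axis) by distance from the summit in bp (horizontal axis), for members (red), IgG peaks under the same rule (grey), non-promoter DMSO peaks without a trametinib peak (blue) and non-promoter trametinib peaks with a DMSO peak (orange). At the centre the lines stand at 0.853, 0.678, 2.01 and 4.65, and the red and grey lines rise little above their flanks.

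Other motifs were searched in the same windows on both strands, and none of the words contains another. The AP-1 motif TGANTCA was present at 174 members, or 5.92% (5.12 to 6.83), at 6.33% of IgG peaks and in 6.23% of genome windows. The difference between members and IgG peaks was −0.412 points (−1.68 to 0.844), and 4.14% of all trametinib peaks held the motif. The GC box GGGCGG, bound by SP1 and related factors, was present at 6.09% of members and 2.77% of IgG peaks, a difference of 3.32 points (2.25 to 4.40). The genome share was 2.48%. The noncanonical E-box CACGCG was present at 31 members (1.05%) and 11 IgG peaks (0.412%), a difference of 0.643 points (0.193 to 1.12). The ETS motif CCGGAAG was present at 28 members (0.953%) and 12 IgG peaks (0.450%), a difference of 0.503 points (0.0585 to 0.966). AMG510 peaks under the same rule held the GC box at 5.18%, a difference for members of 0.906 points (−0.0663 to 1.95). They held the noncanonical E-box at 1.3% (−0.248 points, −0.674 to 0.251) and the ETS motif at 0.561% (0.392 points, 0.0366 to 0.838). Only the last of these intervals does not hold 0. The 3 motifs that were more frequent at members than at IgG peaks each hold a CpG, as does the canonical E-box. The windows of members were also richer in GC and CpG, and the part of base composition in these differences was not tested.

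**Figure D4:**
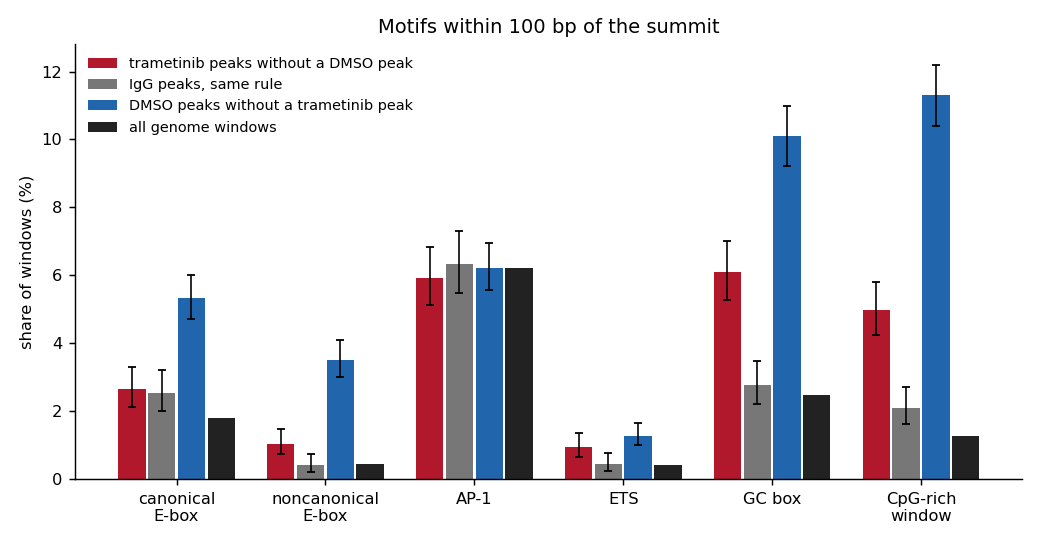
Share of windows of 100 bp on either side of the summit (%, vertical axis) with each motif, or classed as CpG-rich, for members (red), IgG peaks under the same rule (grey), non-promoter DMSO peaks without a trametinib peak (blue) and all genome windows over 1 kb from a protein-coding TSS (black). Bars are 95% Wilson intervals. Members match IgG peaks for the canonical E-box (2.65 and 2.55%) and AP-1 (5.92 and 6.33%), and lie between IgG and DMSO peaks for the GC box and CpG-rich windows.

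The CpG-rich members were looked at apart after these values were seen, and are described with no test. Of the 146, 15 held a canonical E-box (10.3%, 6.33 to 16.3), 75 a GC box (51.4%) and 54 had a TSS of some other annotated transcript within 1 kb (37.0%). The remaining 2793 members held an E-box at 2.26% (1.77 to 2.88) and a GC box at 3.72%. Among CpG-rich IgG peaks the E-box share was 4 of 56 (7.14%, 2.81 to 17), an interval that overlaps that of the members. CpG-rich genome windows held it at 4.60%. An AMG510 peak overlapped 17 of the CpG-rich members (11.6%, 7.40 to 17.9) and 1.68% of the others. The 2 classes had nearly the same height, with medians of 12 and 11 tags.

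The AMG510 library, which the rule did not use, seldom had a peak at the same place. It overlapped 64 members, or 2.18% (1.71 to 2.77), where 22.2% of all trametinib peaks were overlapped. Of the non-promoter trametinib peaks with a DMSO peak 67.9% were overlapped, but that set had been chosen for a call in another library. DMSO peaks without a trametinib peak were overlapped at 3.93%, a difference for members of −1.76 points (−2.52 to −0.962). Of IgG peaks under the same rule the AMG510 peaks overlapped 1.54% (1.13 to 2.08), and the difference was 0.641 points (−0.0743 to 1.36). Of the 64 regions, 15 lay on contigs, 17 were CpG-rich, 23 had a TSS of some annotated transcript within 1 kb and 4 held a canonical E-box. An IgG peak overlapped 30 members, or 1.02%, against 3.39% of all trametinib peaks and 40.1% of the non-promoter trametinib peaks with a DMSO peak. The share was 0.83% for DMSO peaks without a trametinib peak and 0.617% for AMG510 peaks under the same rule. Of these 30 members, 0 held a canonical E-box, which at 3 counts allows a share of up to 10% (Wilson upper bound 11.4%). Both AMG510 and IgG peaks were present at 14 members.

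Members were spread unevenly over the chromosomes, with an order of densities close to that of control peaks but a wider range. Chromosome 5 had the highest density, with 2.02 members per Mb of sequence, while chromosome 4 had 0.142, chromosome 11 had 0.201, chromosome 15 had 0.213 and chromosome X had 0.284. Over 23 chromosomes the density of members and that of IgG peaks under the same rule had a Pearson r of 0.908 and a Spearman rho of 0.879. With AMG510 peaks under the same rule r was 0.964 (rho 0.955), with DMSO peaks without a trametinib peak 0.965 (0.961) and with the median local background at members 0.786 (0.699). The chromosomes are not independent samples, and the libraries come from the same cell line and share its chromosome content and mappability. Chromosome 5 held 12.8% of members (11.6 to 14), 9.27% of IgG peaks and 6.23% of the sequence, and the difference from IgG was 3.48 points (1.83 to 5.13). DMSO peaks without a trametinib peak had 12.6% there (11.7 to 13.6), and AMG510 peaks under the same rule 10.1%. Chromosomes 4, 11, 13, 15 and X, grouped after their densities were seen, held 5.18% of members and 8.28% of IgG peaks. They held 5.93% of DMSO peaks without a trametinib peak and 8.53% of AMG510 peaks under the same rule. The local background recovered at members was highest on chromosome 5, with a median of 2.05 tags against 1.5 on chromosome 4. Beyond the correlation given, the part of this background in the number of peaks was not tested. With chromosomes 4, 5, 11, 13, 15 and X left out, a choice made after their densities were seen, the difference at 5 to 50 kb from a TSS was 4.43 points (1.54 to 7.31) and that in CpG-rich windows 3.20 points (2.10 to 4.32). The difference in noncoding genes and pseudogenes was −2.18 points (−4.32 to −0.0468) there, an interval that no longer holds 0.

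**Figure D5:**
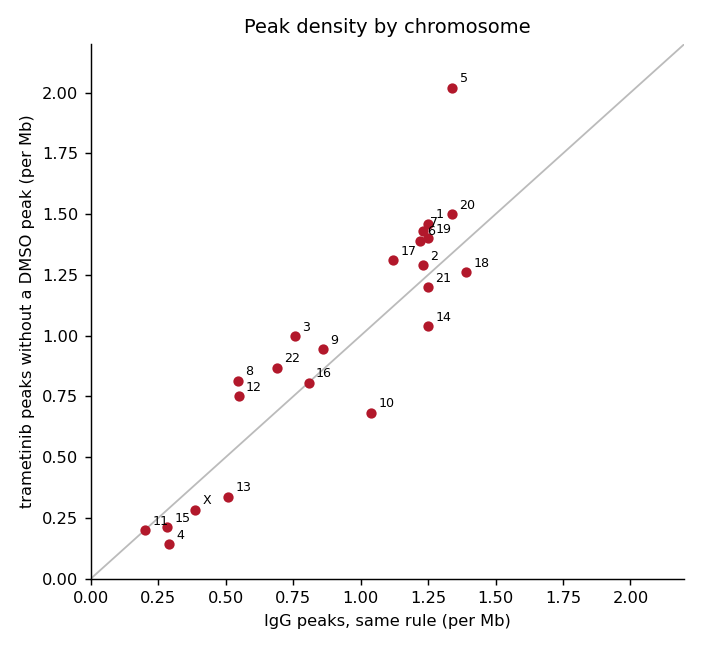
Members per Mb (vertical axis) against IgG peaks under the same rule per Mb (horizontal axis), 1 point per chromosome labelled with its name; the grey line marks equal density. Chromosome 5 lies highest, at 2.02 members per Mb, and chromosomes 4, 11, 15 and X lie near the origin in both sets.

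Few stretches of a chromosome held many members. The windows of 1 Mb with the most members were chr21:9000001-10000000 and chr6:89000001-90000000, with 8 each, and chr2:169000001-170000000, with 7. IgG peaks under the same rule numbered 3, 1 and 1 there. In the chromosome 21 window, 5 of the 8 summits had a repeated sequence, and DMSO peaks without a trametinib peak numbered 9. In the chromosome 6 window these DMSO peaks numbered 3. On chromosomes 1 to 22 and X, 101 members (3.51%) lay within 10 kb of an IgG summit under the same rule, whereas 1.77% of genome windows did.

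Counted by gene, members followed gene length. A member lay in or within 10 kb of 1606 of 20046 protein-coding genes, or 8.01%, and an IgG peak under the same rule of 6.97%. The share was 2.86% for genes under 20 kb and 21.2% for genes over 100 kb, and 2.35% and 20.3% for IgG peaks. PDE4D, a cyclic AMP phosphodiesterase gene of 1553 kb, held the most members with 6, and 3 IgG peaks. AGAP1, which encodes an ARF GTPase-activating protein, held 5 members and 1 IgG peak. The 10 further genes with 4 members each held from 0 to 5 IgG peaks, with 5 in CNTNAP2, which encodes a neuronal adhesion protein, and 0 in RPTOR, which encodes a subunit of mTORC1. These genes were named after their counts were seen, and genes rich in IgG peaks were not counted in turn.

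Genes linked to the study's questions were counted in short lists. Trametinib peaks within 1 kb of a protein-coding TSS could not count here, since the rule leaves them out. None of 13 lipid synthesis genes and none of 10 MYC target genes had a member in or within 10 kb, and neither list had an IgG peak. In the MYC network, 1 of 13 genes had a member. This was MXD1, which encodes a partner of MAX that opposes MYC, with a summit in its intron 4000 bp from the TSS and 12 tags (exact Poisson interval 6.20 to 21.0). The fold enrichment of this member was 3.55, above that of only 6.11% of trametinib peaks. Among genes of ERK feedback and output, 1 of 18 had a member, at SPRY4, an inhibitor of the pathway that ERK itself induces. Its summit lay in a coding exon with 13 tags. Among lysosome and autophagy genes, 1 of 16 had members, namely MITF, a transcription factor of the family that controls lysosomal genes. Its intronic members had 14 and 8 tags. The larger ran over chr3:69748466-69748668 with a fold enrichment of 6.01, and the smaller had 3.6. An IgG peak lay at SPRED1 in the ERK list and at MAP1LC3B in the lysosome list. Against 8.01% of all genes, lists of 10 to 18 genes are too short to tell these counts from the background. The 0 of 13 lipid synthesis genes and 0 of 10 MYC target genes allow, at 3 counts, shares of up to 23.1% and 30%. Median gene length was 40.7 kb for lipid synthesis, 30.1 kb for lysosome and autophagy and 17 kb for the MYC network. It was 11.4 kb for MYC targets and 10.9 kb for ERK feedback and output, against 27.4 kb over all genes. The part of gene length in these counts was not tested.

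The highest members were mostly in intergenic or repeated sequence. The highest, at chr18:109894-110070 in the noncoding gene ROCK1P1, had a fold enrichment of 9.18 and 26 tags (17 to 38.1), above that of 98.5% of trametinib peaks. The overlapping AMG510 peak had 20 tags and the IgG peak 21, a DMSO peak lay 220 bp away, and the 31 bases at the summit had 10 copies in the genome. The next, the TUBA3C-side member at chr13:16022313-16022511, was intergenic with 24 tags, and its summit sequence had 322 copies. The nearest protein-coding TSS, that of TUBA3C, lay 3159418 bp away. The RNVU1-4 member at chr1:120942449-120942778 had a fold enrichment of 7.61 and 18 tags, with its summit 10 bp from the TSS of this variant U1 small nuclear RNA gene, in a sequence with 2 copies. An AMG510 peak with 11 tags overlapped it. The PTGER4-side member, with 21 tags, lay 461407 bp from the TSS of that prostaglandin receptor gene, and the PTBP2-side member, with 18 tags, 281494 bp from that of a splicing regulator. Both had a summit sequence that occurs once in the genome and neither had an overlapping peak in any other library.

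Among members with a canonical E-box, none of the 3 highest overlapped a peak of another library. The JUN-side member at chr1:58755547-58755774 had a fold enrichment of 6.35 and 16 tags (9.15 to 26). It lay in a long noncoding RNA gene 28380 bp from the TSS of JUN, which encodes an AP-1 subunit, and its E-box was 20 bp from the summit. The ID2-AS1 member at chr2:8676562-8676778 had 24 tags (15.4 to 35.7). Its summit was 2 bp from the TSS of the noncoding ID2-AS1 and 2167 bp upstream of ID2, which encodes an inhibitor of helix-loop-helix factors. The DDI2-side member at chr1:15603572-15603736 had 15 tags in a CpG-rich window that shows 3 canonical E-boxes, 1 of them 1 bp from the summit. It lay 13800 bp upstream of DDI2, a protease gene, and 32 bp from the TSS of a noncoding gene.

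Of the 5 highest members that overlapped an AMG510 peak and no IgG peak, 3 lay at small RNA genes, whereas 8 of the 64 members with an AMG510 peak did so within 1 kb. The RNU4ATAC member at chr2:121530837-121531170 had 19 tags (11.4 to 29.7) and the AMG510 peak 12. Its summit was 85 bp from the TSS of RNU4ATAC, a small nuclear RNA of the minor spliceosome that lies in an intron of CLASP1. The TEX14 member at chr17:58631393-58631863 had 19 tags in trametinib and 15 in AMG510, with its summit 84 bp from the TSS of a gene for U3, a small nucleolar RNA that acts in processing of ribosomal RNA. The MSL1-side member had 19 tags and 15 in AMG510. The PLEKHG6-side member lay in a CpG-rich intergenic window with a GC content of 78.6%, and had 23 tags and 15 in AMG510. None of these windows held a canonical E-box.

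Members that overlapped an IgG peak included regions with few IgG tags. After the ROCK1P1 member, the highest was at chr6:11053209-11053417, in the noncoding gene ELOVL2-AS1 and 8986 bp from the TSS of ELOVL2, which encodes a fatty acid elongase. It had 17 tags in trametinib and 8 in IgG. The next, at chr7:158151345-158151529 in an intron of PTPRN2, had 17 tags, with 13 in AMG510 and 13 in IgG.

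Members close to the limits of the rule show how it draws its line. The nearest to a TSS lay 1002 bp from that of HELZ2 with 10 tags and 1019 bp from that of EFNA4 with 15 tags. Just inside the limit, and therefore not members, were trametinib peaks 980 bp from a TSS of FASN with 20 tags and 973 bp from one of ABCA7 with 15 tags. A DMSO peak lay 209 bp from this FASN peak and 20953 bp from this ABCA7 peak. The smallest gap to a DMSO peak was 1 bp, at chr6:35732174-35732391, 3721 bp upstream of FKBP5, where the member had 13 tags and an E-box 28 bp from its summit. The next was 3 bp, at chr21:5312749-5312931. A DMSO peak lay within 1 kb of 78 members (2.65%) and of 1.65% of IgG peaks under the same rule. Of those 78 members, 17 were CpG-rich and 5 held a canonical E-box.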

How the data were processed

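Peaks came from 4 ChIP-seq libraries of MIA PaCa-2 cells, grouped by sample title. According to the methods and the submitters' processing notes, the authors trimmed reads (Trimmomatic 0.39), aligned them to GRCh38 (BWA 0.7.17, SAMtools 1.9), removed duplicates (Picard), converted alignments to intervals (bedtools 2.27.1), called peaks per library (MACS2 2.2.7.1, q = 0.05) and removed ENCODE exclusion regions. The deposited columns hold a score, a fold enrichment (a ratio), a −log10 p-value and a −log10 q-value, all made by the authors. From fold enrichment and p-value the whole number of tags and the local background at each summit were recovered. The depth in calling, 22700000 to 24800000 tags, assumes a genome size of 2700000000 bp and left the median member with 11 tags (5.49 to 19.7, exact Poisson). A count of 0 allows up to 3 counts.

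Start sites were those of protein-coding transcripts of protein-coding genes in GENCODE 44, with positions in genes taken from canonical transcripts. Contigs had no start site there, so their peaks counted as non-promoter and stayed in the shares. The genome windows came from chromosomes 1 to 22 and X only. Overlap meant at least 1 bp. Shares were compared by interval (Python 3.11.15, scipy 1.17.1, pysam 0.24.0), and scripts were tested on simulated data. No test between groups was possible with 1 library each. Members, motifs and gene lists were chosen with earlier results of these data known. The regions named were, on chromosomes 1 to 22 and X, the 5 of largest fold enrichment among all members, among those with an E-box, and among those with an AMG510 but no IgG peak, the 3 highest with an IgG peak, those nearest each limit, those at listed genes and the 3 fullest windows of 1 Mb. Alternatives changed the fold, score, distance, TSS set, overlap, chromosomes and motif window. Of the 5 regions with an E-box, 2 are not reported here.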

Additional observations from a re-analysis of the deposited data

How the results depend on the processing

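No paired analysis was possible because no group was replicated, which also means that no library could be left out. The 6 results recomputed were the number of members, the AMG510 overlap, and the differences from IgG in intergenic share, E-box, AP-1 motif and median GC. The differences in TSS distance, other start sites, CpG-rich windows, GC box, noncanonical E-box and ETS motif were not recomputed under the fold or score limit. The 9 alternatives gave 46 values for the 6 results. Of these, 35 lay inside the interval of the reported value (or within 1.5 times of it for the number of members) and 11 lay outside. Among these differences from IgG, only that in median GC had an interval apart from 0, and it kept its sign. The intergenic, E-box and AP-1 differences, whose intervals hold 0, each changed sign under at least 1 alternative. A fold enrichment above 5 left 637 members, moved the AMG510 overlap to 3.77%, the E-box difference from IgG to 1.16 points (−0.491 to 2.92) and the median GC difference to 0.498 points (−0.615 to 2.99), so that the GC difference no longer lay apart from 0. A score above 60 left 102 members and 45 IgG peaks, with an AMG510 overlap of 16.7%, an intergenic difference of −4.18 points (−20.9 to 11.4), an AP-1 difference of 1.70 points (−7.94 to 7.72) and a GC difference of 1.24 points whose interval holds 0 (−4.21 to 6.99). The AMG510 overlap was 1.51% with start sites of every annotated transcript, 1.61% where a DMSO peak within 1 kb counted as shared and 1.70% on chromosomes 1 to 22 and X. Fewer regions widen the intervals under the fold and score limits; other causes were not tested. Most members rest on few tags, so a region without a DMSO peak can hold tags below the calling limit there.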
